A study of Mus musculus with 2 samples.

Results

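Fragments of retained introns are short RNA pieces from transcripts annotated as keeping an intron that other transcripts of the gene splice out. They were taken as the listed small RNA sequences that matched, over their full length and on the sense strand, only GENCODE vM21 transcripts of the type retained_intron, in at most 10 genes. Fragments of Hspa8 and Gas5 and those on an annotated small RNA gene were left out. This gave 7153 of the 538100 sequences listed, from 2595 genes, of which 2531 code for protein. No member matched more than 5 genes, 6946 matched a single gene, and no retained intron sequence was lost for matching more than 10.

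The fragments came from bone marrow-derived dendritic cells of C57BL/6 mice, grown for 7 days with GM-CSF and IL-4 and treated with LPS (lipopolysaccharide, a bacterial cell wall component). All cells had this treatment, and the labels give neither its dose nor its duration. Swelling in a buffer with the detergent NP40 and a spin gave a nuclear library from the pellet that held the nuclei and a cytoplasmic library from the other fraction, with 1 library of each. The study asked which small RNAs are enriched in nuclei of innate immune cells.

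Introns are cut out of a primary transcript in the nucleus by the spliceosome, which reads a splice site at each intron end. The 5′ splice site usually begins with GT and the 3′ splice site usually ends with AG. Transcripts that keep an intron are often held in the nucleus, and in immune cells intron retention is known to change on activation. A fragment inside an intron can come from a transcript that keeps it, from a primary transcript not yet spliced or from the excised intron, and these sources cannot be told apart here.

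Most fragments had a single read. The most abundant fragment of 12 of the genes with most reads is printed to show what the members look like, and apart from Snrpb and Ttyh1 none of these reached 10 reads. They are given 5′ to 3′ in the letters of the deposited table, and capitals mark the first 2 bases of the intron where a fragment began there, which among these was Fth1.

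Snrpb, chr2:130172938-130172958, minus strand: ttgactgaagctgatgatgcg
Lilrb4a, chr10:51494666-51494684, plus strand: aatggatctggagatgtga
Ttyh1, chr7:4131925-4131944, plus strand: ttaatctcagggtcgtgggt
Cxcl3, chr5:90789330-90789349, plus strand: acttcgggtttgtcgacggt
Slc7a11, chr3:50441230-50441249, minus strand: actgacttgtatggtgataa
Fth1, chr19:9984328-9984345, plus strand: GTaagtagatcctagggg
Rgs1, chr1:144247467-144247485, minus strand: aaggagaagaagacacaca
St8sia4, chr1:95665064-95665086, minus strand: aggataatgagaagactggtgtg
Lilr4b, chr10:51481506-51481529, plus strand: aatcctggaggacaatgtgggtaa
Vim, chr2:13576677-13576698, plus strand: agtagacgaatatgcagcccct
Slc15a3, chr19:10859158-10859175, plus strand: ggcacacggacacaagca
Plk2, chr13:110397270-110397291, plus strand: gtcatatgggctgggcaaattg

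Positions are on GRCm38, the assembly also called mm10. The Snrpb fragment had 360 nuclear reads and 5 cytoplasmic reads, and the Ttyh1 fragment had 3 nuclear reads and 39 cytoplasmic reads. The Fth1 fragment had 4 nuclear reads and 1 cytoplasmic read. Over all members, 5039 of the fragments had 1 read and 21 had 10 or more reads, from 5 genes.

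Retained intron fragments took a larger share of the nuclear library. They had 10281 of 2000019 nuclear reads and 989 of 2041383 cytoplasmic reads, or 0.514% of the nuclear library (exact Clopper-Pearson 95% interval 0.504 to 0.524) and 0.0484% of the cytoplasmic library (0.0455 to 0.0516). The level ratio, nuclear over cytoplasmic RPM (a read count divided by all reads listed in that library), was 10.6 (exact conditional 95% interval 9.94 to 11.3). Exon fragments of the same 2595 genes had 33255 nuclear and 20141 cytoplasmic reads, a level ratio of 1.69 (1.66 to 1.72). Of these genes, 244 had no exon fragment. Exon fragments of other genes had a ratio of 1.75 (1.73 to 1.77). The odds ratio, the intron ratio over the exon ratio of the same genes, was 6.30 (5.88 to 6.74), and it does not depend on how the libraries are scaled. Each fraction has 1 library, so the ratios describe this pair and nothing here was checked in replicates. Reads carry no molecular identifier, so PCR copies count as reads and the intervals state counting error alone. More RNA per nucleus and more cells with that RNA cannot be told apart in bulk fractions.

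Snrpb and Ttyh1 gave the most abundant fragments, and without both the level ratio was 11.9 (11.1 to 12.8) and the odds ratio 7.07 (6.56 to 7.62). Genes with under 50 reads had 8269 nuclear and 749 cytoplasmic reads, a ratio of 11.3 (10.5 to 12.2). Counted as distinct sequences in place of reads, the ratio was 3.38, with the nuclear library also listing more sequences in all, 400087 against 169208. The antisense strand of the same transcripts had 1504 nuclear and 81 cytoplasmic reads, a ratio of 18.95 (15.15 to 24.0). That ratio was above the level ratio of the retained intron fragments, so the nuclear excess was not particular to the sense strand. The origin of the antisense reads was not tested. The sequences read backwards matched for 118 nuclear and 16 cytoplasmic reads, and only this count gauges chance matches.

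Of the 2595 genes, 391 had fragments in both libraries, 2034 in the nuclear library alone and 170 in the cytoplasmic library alone. Most were thinly covered, with 979 genes at a single read, which can fall in 1 library only, and 2416 under 10 reads. As distinct sequences, 6393 of the 7153 fragments had a nuclear read and 801 a cytoplasmic read. Of the 39257 exon fragments of the same genes, 22307 had a nuclear read and 17592 a cytoplasmic read. Among the genes with 10 to 19 reads, the nuclear level was higher in 120 of 120, and 58 of them had no cytoplasmic read. These include Tmed10, with 5 reads in each library and a ratio of 1.02 that comes from the library totals alone. The interval also held 1 in others, such as Sem1 with 6 nuclear and 4 cytoplasmic reads. The level was also higher in 83.1% of 2042 exon entries of that depth. Among those with 20 to 49 reads it was higher in 42 of 42, against 81.6% of 1333 exon entries, and 14 had no cytoplasmic read. The share of exon entries seen in 1 library alone was not counted, so these gene counts do not show nuclear restriction.

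Snrpb, a core protein of the spliceosomal snRNPs, had the most reads, 855 nuclear and 22 cytoplasmic. The ratio was 39.7 (26.0 to 63.6). All reads lay in 1 block of 71 nt in a 307-nt intron, made of 44 distinct fragments, while the exons of the gene had 3 nuclear and 7 cytoplasmic reads. The block is printed because its letters show C and D box motifs, the pair that marks box C/D snoRNAs, nuclear guide RNAs that direct ribose methylation. In human, an intron of SNRPB holds the box C/D snoRNA SNORD119. No annotated mouse small RNA gene overlapped the block in the tables used. Capitals mark the C box, spelled TGATGA, and the D box, spelled CTGA.

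Snrpb block, chr2:130172908-130172978, minus strand: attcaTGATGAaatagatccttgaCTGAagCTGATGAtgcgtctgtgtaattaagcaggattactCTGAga

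The C box TGATGA stood at bases 6 to 11 and 32 to 37 of the block. The D box CTGA stood at bases 25 to 28, 31 to 34 and 66 to 69, of which the one at 31 to 34 overlaps a C box. On the sense strand of retained intron transcripts, 2.61% of 476871 windows of 71 nt held a C box and 33.2% held a D box. A C box in the first 15 bases with a D box in the last 10 occurred in 81 windows, or 0.0170%. The window length is that of the block and the end limits take in its own motifs, so this share cannot test the block. The motif matches describe the letters and do not show a snoRNA.

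Ttyh1, a gene for a chloride channel-related membrane protein, ran the other way, with 18 nuclear and 161 cytoplasmic reads. The ratio was 0.114 (0.0660 to 0.186). All of its reads lay in 1 block of 42 nt, made of 32 distinct fragments, and no exon read of the gene was listed in either library. The block is printed because letters of this kind also occur in lysine tRNAs, and most tRNA genes were not matched here, so its origin in Ttyh1 was not shown.

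Ttyh1 block, chr7:4131909-4131950, plus strand: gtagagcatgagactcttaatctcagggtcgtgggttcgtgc

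**Figure D1:**
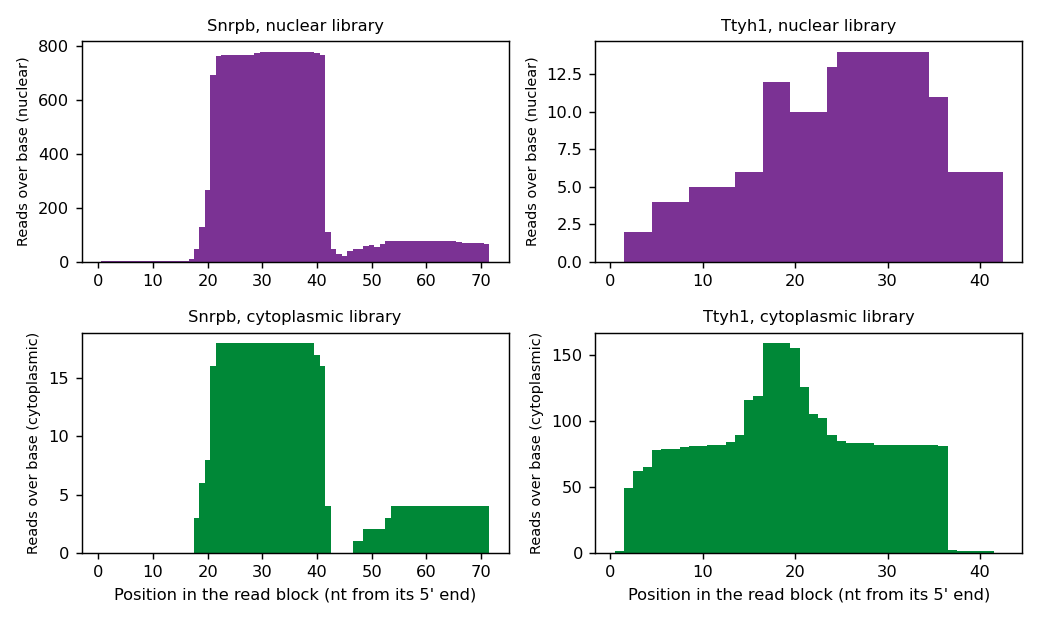
Reads over each base (vertical axes, linear and set for each panel) along the Snrpb block and the Ttyh1 block (horizontal axes, nt from the 5′ end), with the nuclear library above the cytoplasmic library. In Snrpb both libraries are highest between bases 22 and 41. In Ttyh1 the cytoplasmic reads lie mostly over bases 2 to 36, with a peak between bases 17 and 20, and fall to 2 reads at base 37.

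Genes were then compared singly. An entry is the sum of a gene's retained intron reads, it needed at least 50 reads over both libraries, and it was called higher or lower where the log2 ratio with a pseudocount of 0.5 reads reached 2-fold and the interval excluded 1. Of the 17 such entries, 16 (94.1%) were higher in the nuclear library, where 44.5% of the 923 entries of all kinds and 38.7% of the 517 exon entries were. Ttyh1 alone (5.88%) was lower, against 9.43% of all entries and 5.8% of exon entries. The median log2 ratio was 4.26 over the 17 entries, against 0.73 over all entries and 0.65 over exon entries. All of the 17 except Ttyh1 reached the minimum mainly through nuclear reads. Their count and median are therefore not separate from the level ratio of all fragments. Just inside the minimum, Tnip3 had 49 nuclear and 4 cytoplasmic reads. Just outside it, 1110038B12Rik had 47 nuclear reads and 1 cytoplasmic read and Tcirg1 had 43 and 3. The gene 1110038B12Rik also holds Snord52, and 1 fragment gave 23 of its nuclear reads.

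**Figure D2:**
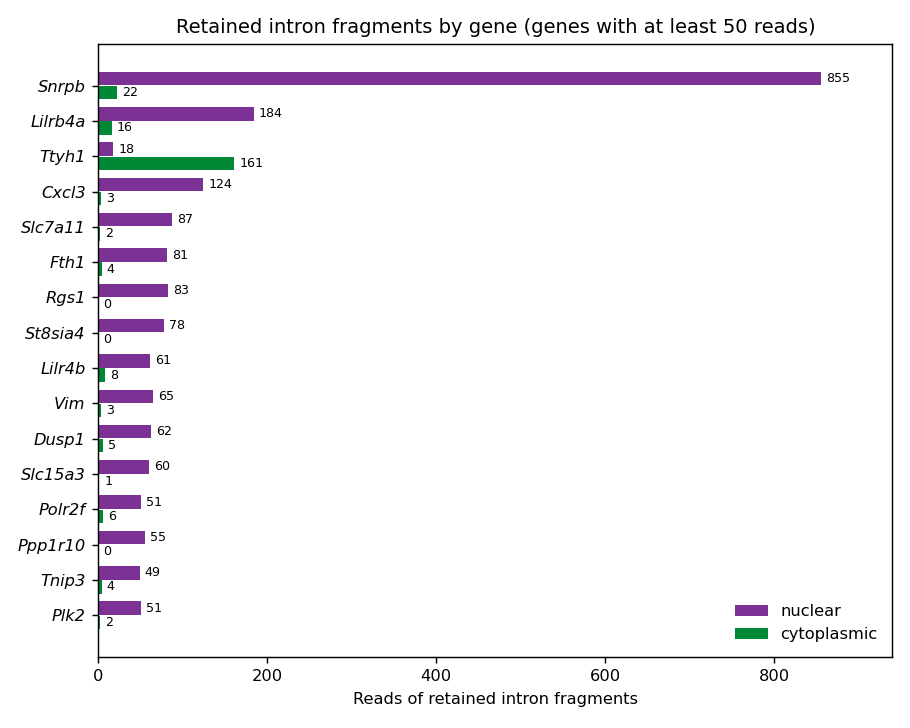
Reads of retained intron fragments (horizontal axis) in the nuclear and cytoplasmic libraries for 16 of the 17 genes with at least 50 reads, each bar labelled with its count. Nuclear reads exceed cytoplasmic reads in each gene drawn except Ttyh1, which has 18 against 161.

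Several entries belong to genes of immune regulation. Lilrb4a, an inhibitory receptor of myeloid cells, had 184 nuclear and 16 cytoplasmic intron reads, a ratio of 11.7 (7.04 to 20.97). Of its reads, 63% also matched the neighbouring paralog Lilr4b, so the genes cannot be separated for those fragments. The Lilr4b entry, which holds none of the shared fragments, had 61 nuclear and 8 cytoplasmic reads, a ratio of 7.78 (3.71 to 18.8). Both entries spread over many places, with Lilrb4a in 37 blocks over 4410 nt. Rgs1, which limits signalling from G protein-coupled chemokine receptors, had 83 nuclear reads, all in an intron of 1552 nt, and no cytoplasmic one. With no cytoplasmic read the ratio has no upper end, and the low end of its exact interval was 22.5. The Rgs1 exons had 316 nuclear and 62 cytoplasmic reads.

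Cxcl3, a chemokine that draws neutrophils, had 124 nuclear and 3 cytoplasmic reads, a ratio of 42.2 (14.1 to 207), where its exons had 33 nuclear and 42 cytoplasmic reads. The interval of the ratio was wide because few cytoplasmic reads were listed. Of the Cxcl3 reads, 98 nuclear and 2 cytoplasmic lay 113 to 1407 nt past the end of its other transcripts, in sequence that the retained intron transcript alone carries. Its introns alone had 26 nuclear reads and 1 cytoplasmic read, a ratio of 26.5 (4.36 to 1088). Slc15a3, a lysosomal transporter of histidine and small peptides, had 60 nuclear reads and 1 cytoplasmic read, and 32 nuclear and 1 cytoplasmic of these lay 67 to 1393 nt past the end of its other transcripts. Its introns alone had 28 nuclear reads and no cytoplasmic one, with a low end of 7.25 for the ratio. For these genes the label of a retained intron therefore covers downstream sequence as well.

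The next group takes in metabolism and iron. Slc7a11, the cystine and glutamate exchanger that supplies cysteine for glutathione, had 87 nuclear and 2 cytoplasmic reads, a ratio of 44.4 (11.9 to 372). Of these, 85 nuclear reads came from 1 intron of 4069 nt, and both cytoplasmic reads came from another. Fth1, the heavy chain of the iron store ferritin, had 81 nuclear and 4 cytoplasmic intron reads, a ratio of 20.7 (7.77 to 77.7), while its exons had 286 nuclear and 387 cytoplasmic reads. In RPM per kilobase of sequence, the Fth1 intron level was 21.9 nuclear and 1.06 cytoplasmic, and the exon level 88.4 nuclear and 117 cytoplasmic. Pgd, an enzyme of the pentose phosphate pathway, had 21 nuclear intron reads and no cytoplasmic one. The low end of its ratio was 5.32, and its exons had 29 nuclear and 31 cytoplasmic reads.

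The other genes named for a large ratio or odds ratio have varied roles, and their direction follows from that choice. Vim, the intermediate filament protein vimentin, had 65 nuclear and 3 cytoplasmic intron reads, a ratio of 22.1 (7.24 to 110), and 105 nuclear and 132 cytoplasmic exon reads. St8sia4, which adds polysialic acid to surface proteins, had 78 nuclear intron reads and no cytoplasmic one. The low end of its ratio was 21.1. Plk2, a polo-like kinase, had 51 nuclear and 2 cytoplasmic intron reads spread over 6 introns, a ratio of 26.0 (6.85 to 221). Ppp1r10, a nuclear regulatory subunit of protein phosphatase 1 whose gene also holds Mir1894, had 55 nuclear intron reads and no cytoplasmic one. The low end of its ratio was 14.7. Counting fragments at least 100 nt from a small RNA gene, Ppp1r10 had 31 nuclear reads and no cytoplasmic one, with a low end of 8.08. Tes, a focal adhesion protein, had 29 nuclear intron reads and no cytoplasmic one, with a low end of 7.52. H2-Aa, the alpha chain of an MHC class II molecule that presents antigen, had 25 nuclear intron reads and no cytoplasmic one. The low end of its ratio was 6.42, and its exons had 55 nuclear and 65 cytoplasmic reads. Of the other entries called higher, Dusp1, a phosphatase of MAP kinases, had 62 nuclear and 5 cytoplasmic reads, and Polr2f, a subunit of RNA polymerases, had 51 and 6. The Polr2f reads came from only 9 distinct fragments, of which the most abundant had 21 nuclear and 3 cytoplasmic reads.

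Set against the exons of the same gene, introns lay further to the nuclear side in most genes that could be compared. Of 49 genes with at least 20 intron and 20 exon reads, the interval of the odds ratio lay above 1 in 32 (65.3%) and held 1 in 17. It lay below 1 in no gene (0%). Intron reads were mostly nuclear in all 49 genes, so the intron minimum was reached mainly through the nuclear library. These counts are therefore not separate from the odds ratio of the summed reads. With 0.5 added to each count, the odds ratio was over 1 in 48 genes, and its median on the log2 scale was 2.67. The exception was Nfkb1, a subunit of the transcription factor NF-kappa B, with 20 nuclear and 6 cytoplasmic intron reads, 105 and 28 exon reads and an exact odds ratio of 0.890 (0.306 to 2.97). Tnip3, an inhibitor of NF-kappa B signalling, had an exact odds ratio of 0.943 (0.0803 to 7.09), with exons that were themselves higher in the nuclear library at 26 nuclear and 2 cytoplasmic reads.

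Among the named genes the odds ratio was 51.3 (15 to 275) for Cxcl3, or 32.2 with a low end of 4.79 for its introns alone. It was 27.3 (10.1 to 104) for Fth1 and 27.0 (8.46 to 138) for Vim. These 3 genes share exons near or below parity, with exon ratios of 0.802, 0.754 and 0.812. Slc7a11, with 128 nuclear and 49 cytoplasmic exon reads, had an odds ratio of 16.5 (4.15 to 144). Plk2, with 136 and 40 exon reads, had 7.46 (1.82 to 66.0), and Slc15a3, with 55 and 12, had 12.9 (1.80 to 569). The paralogs had lower odds ratios, at 3.69 (1.67 to 9.28) for Lilr4b and 3.03 (1.09 to 8) for Lilrb4a. Fragments shared by the paralogs were assigned separately for introns and exons, so these 2 odds ratios are not strictly comparisons within 1 gene. Where no cytoplasmic intron read was listed, the low end of the odds ratio's interval was 10.9 for St8sia4, 6.93 for H2-Aa, 5.39 for Tes, 4.87 for Pgd, 4.16 for Rgs1 and 1.67 for Ppp1r10.

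**Figure D3:**
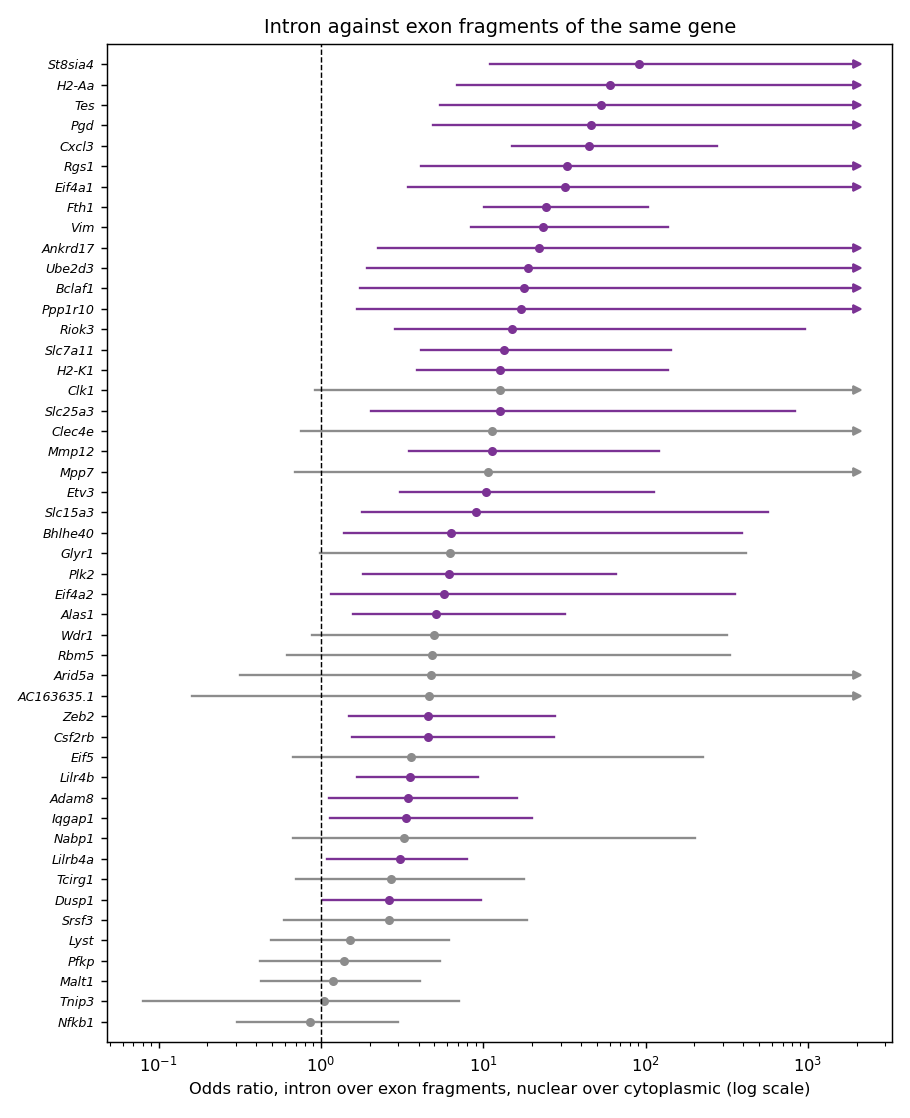
Odds ratio of intron over exon fragments, nuclear over cytoplasmic (horizontal axis, log scale), for 48 of the 49 genes with at least 20 reads in each, with points computed after adding 0.5 to each count and lines giving the exact 95% interval (arrows have no upper end). Purple genes have an interval above 1, and grey genes (17) an interval that holds 1.

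Grouped by the role of the host gene, every list had a higher intron ratio than exon ratio. A gene with a small RNA in its bounds may also stand in a list by role. In 38 innate immune and LPS response genes, retained introns had 413 nuclear and 21 cytoplasmic reads, a ratio of 20.1 (13.0 to 32.8), against 2.02 (1.83 to 2.23) in their exons. Without Cxcl3 and Slc7a11, which gave the most reads of that list, 202 nuclear and 16 cytoplasmic reads remained, a ratio of 12.9 (7.74 to 22.98). Leaving out fragments outside introns, such as those past the end of Cxcl3, the list had 315 nuclear and 19 cytoplasmic reads, a ratio of 16.9 (10.7 to 28.5). In 58 genes of ribosomal proteins and translation they had 270 nuclear and 11 cytoplasmic reads, a ratio of 25.1 (13.8 to 50.8), against 1.01 (0.939 to 1.09) in exons. In 31 genes of antigen presentation and the lysosome they had 178 nuclear and 17 cytoplasmic reads, a ratio of 10.7 (6.49 to 18.8), against 0.882 (0.816 to 0.953) in exons. The last exon ratio is the only one whose interval lies below 1.

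In 59 genes of splicing and RNA binding, whose own introns are often retained in mammalian cells, they had 337 nuclear and 41 cytoplasmic reads, a ratio of 8.39 (6.05 to 11.9), against 2.14 (1.95 to 2.35) in exons. In 325 genes with an annotated small RNA in their bounds they had 1267 nuclear and 108 cytoplasmic reads, a ratio of 11.97 (9.83 to 14.7), against 1.55 (1.49 to 1.61). The other 2123 genes had 8023 and 803 reads, a ratio of 10.2 (9.48 to 11.0), against 1.79 (1.75 to 1.83).

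At the minimum of 50 reads the lists held few entries: 2 in the innate list (Cxcl3 and Slc7a11, both higher, median log2 ratio 5.17), 1 among small RNA hosts (Ppp1r10, higher) and 14 among other genes (13 higher, 1 lower, median 4.02). At a minimum of 20 reads, where 44% of 2442 entries of all kinds and 39.7% of 1850 exon entries were higher, 3 of 3 translation genes were higher, which were Eif5 with 25 nuclear reads and 1 cytoplasmic read, Eif4a1 with 20 and 0, and Eif4a2 with 19 and 1, all initiation factors. The 3 of 3 splicing genes were Srsf3 with 25 nuclear and 3 cytoplasmic reads, Clk1 with 23 and 0, and Rbm5 with 20 and 1. Srsf3 is an SR protein, Clk1 a kinase of SR proteins and Rbm5 an RNA-binding splicing regulator. In the innate list 5 of 5 were higher, with Mmp12, a macrophage elastase, at 37 nuclear and 2 cytoplasmic reads and Clec4e, the receptor Mincle, at 28 and 0. In the antigen presentation list 3 of 3 were higher, among them the MHC class I gene H2-K1 at 35 nuclear and 2 cytoplasmic reads and H2-Q7 at 18 and 5. The 10 small RNA hosts measured at that depth were all higher, and they count Eif5, Eif4a1 and Eif4a2 again. Of 38 other genes 36 were higher, with Ttyh1 lower and Gm43305 neither at 18 nuclear and 11 cytoplasmic reads. Most entries in these lists reached the minimum mainly through nuclear reads.

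Most fragments lay wholly inside an intron, 91.9% of nuclear and 93.9% of cytoplasmic member reads, with a ratio of 10.4 (9.70 to 11.1). Those across a 5′ splice site had 350 nuclear and 19 cytoplasmic reads, a ratio of 18.8 (11.9 to 31.6), and those across a 3′ splice site had 188 and 8, a ratio of 24.0 (11.9 to 56.4). Another 281 nuclear and 27 cytoplasmic reads, from 81 genes, lay outside any intron of the other transcripts, 10 and 2 spanned a junction of the retained intron transcript, and 4 and 4 came from genes with no spliced transcript to compare. A fragment across a splice site carries exon and intron joined. Abundant fragments of this kind from 5 genes, chosen after their values were seen, are printed with intron bases in capitals to show the joined sequence. The first 2 cross a 5′ splice site and the last 3 a 3′ splice site.

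Sptan1, chr2:29986293-29986310, plus strand: taacagGTACTAGGGCTG
Ralgds, chr2:28548132-28548154, plus strand: aaaagagaaggaagGTGAGGAGC
Clk1, chr1:58417372-58417392, minus strand: CTTTAACAGgggaggtagacg
Itgax, chr7:128134905-128134925, plus strand: GTTTTCGCTGGGGACAGgtag
Zfp606, chr7:12489561-12489582, plus strand: CTCTTTCAGgaaccagtgactt

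None of these 5 fragments had a cytoplasmic read. Sptan1, a spectrin of the membrane skeleton, had 8 nuclear reads, and Ralgds, an exchange factor for Ral GTPases, had 6. Clk1 and Itgax, the integrin chain CD11c that marks dendritic cells, had 5 each, and Zfp606, a zinc finger protein, had 4.

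Fragments across the boundaries of the same introns allow unspliced and spliced sequence to be set side by side. With at least 4 nt on each side, 4445 introns of 1564 genes were covered. Exon-into-intron fragments had 202 nuclear and 10 cytoplasmic reads, a ratio of 20.6 (11.0 to 43.7), and intron-into-exon fragments had 79 and 4, a ratio of 20.2 (7.57 to 75.8). Exon-exon junctions that span the removed intron had 181 nuclear and 293 cytoplasmic reads, a ratio of 0.631 (0.521 to 0.761). The unspliced share of boundary reads was 60.8% in the nuclear library (56.2 to 65.3) and 4.56% in the cytoplasmic library (2.52 to 7.53), an odds ratio of 32.3 (18.2 to 61.8). A kept intron offers a boundary at each end and a removed one a single junction. The unspliced share is therefore one of reads, not of transcripts. Unspliced fragments came from 147 genes. Plk2 gave 19 of the nuclear reads, and Taf1d, a subunit of an RNA polymerase I factor, gave 8 nuclear and 3 cytoplasmic reads. The Taf1d gene also holds annotated small RNA genes.

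**Figure D4:**
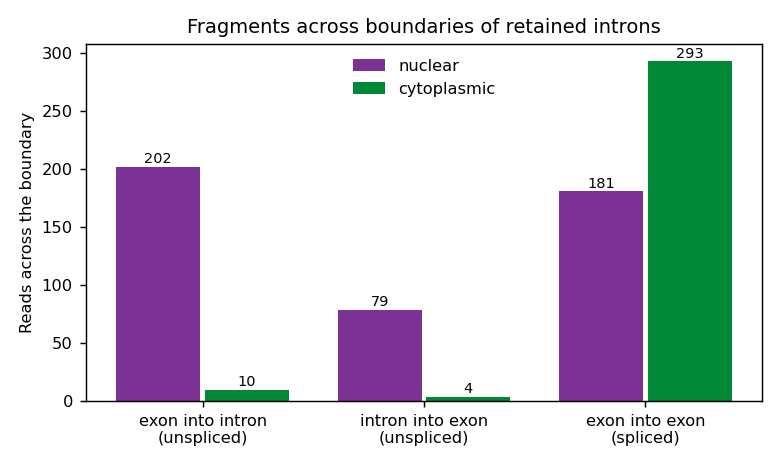
Reads (vertical axis) of fragments across the boundaries of retained introns with at least 4 nt on each side, nuclear left of cytoplasmic, for unspliced exon-into-intron, unspliced intron-into-exon and spliced exon-into-exon fragments. Nuclear reads exceed cytoplasmic reads in both unspliced kinds (202 against 10, and 79 against 4), and spliced fragments number 181 nuclear against 293 cytoplasmic reads.

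Fragment 5′ ends were counted around the first base of introns. That position had 38 nuclear and 9 cytoplasmic reads from 35 genes, where the next 10 positions averaged 12.7 nuclear and 0.5 cytoplasmic reads. The nuclear profile had single positions as high elsewhere, up to 51 reads at 41 nt into the intron, and the cytoplasmic profile had no other position above 4 reads within 60 nt. Fth1 gave the most reads at the first base, 5, through the fragment printed above with GT in capitals. In the cytoplasmic library the 9 reads came from 8 genes. At the 3′ end, fragments that stopped on the last intron base had 12 nuclear and 3 cytoplasmic reads, against neighbour means of 8.10 and 0.600, and 6 of these reads were from Vim.

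**Figure D5:**
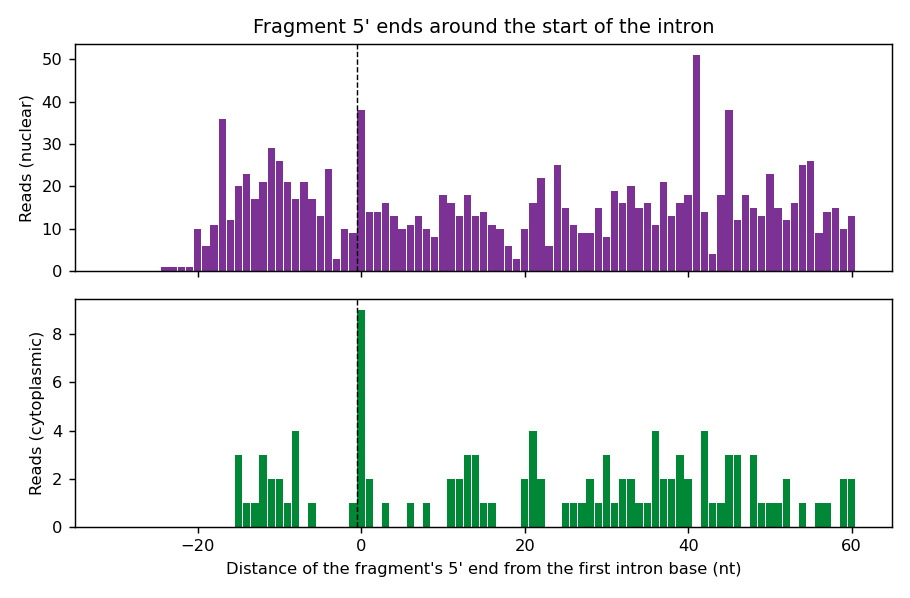
Reads (vertical axes) by distance of the fragment's 5′ end from the first intron base (horizontal axis, nt, with 0 at the dashed line), with the nuclear library above the cytoplasmic library. The first intron base had 38 nuclear and 9 cytoplasmic reads, the most of any cytoplasmic position drawn, while the nuclear profile reaches 51 reads at 41 nt.

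Length, first base and base composition were set beside those of exon fragments of the same genes. Mean length was 21.1 ± 2.19 nt in the nuclear library and 21.1 ± 2.29 nt in the cytoplasmic library (SD over reads), and exon fragments averaged 21 nt nuclear and 21.5 nt cytoplasmic. A was the first base in 29.9% of nuclear and 46.7% of cytoplasmic reads, or 32.2% and 53.1% without Snrpb and Ttyh1, against 34.3% nuclear and 53.0% cytoplasmic in exon fragments. T was the first base in 31.7% of nuclear and 30.8% of cytoplasmic reads, or 28.4% and 21.8% without those genes, against 22.9% nuclear and 20.1% cytoplasmic in exon fragments. G+C content was 51.0% in nuclear and 48.0% in cytoplasmic reads, against 55.1% and 50.7% in exons. Each distinct fragment had 1.61 nuclear and 1.23 cytoplasmic reads on average, or 1.48 and 1.06 without Snrpb and Ttyh1, against 1.49 and 1.14 in exons.

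Markers of the cells were read from exon fragments. All 10 dendritic cell and macrophage markers were listed, at 346 nuclear and 678 cytoplasmic RPM in sum, and B cell, T cell and erythroid markers had no exon read in either library. The 6 neutrophil markers summed to 4 nuclear and 5.88 cytoplasmic RPM, with all 6 listed. The 5 stromal markers summed to 42.0 nuclear and 3.92 cytoplasmic RPM, with all 5 listed, and their part in the nuclear intron reads was not tested, beyond the single retained intron read these 5 genes themselves gave. The left-out fragments of Hspa8 and Gas5, which host many snoRNAs, had 4582 nuclear and 86 cytoplasmic reads, and those on annotated small RNA genes 781 and 79.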

How the data were processed

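Per the labels' protocols, RNA of each fraction was isolated with a miRNA kit and made into Illumina small RNA libraries. The submitters' processing notes name CASAVA and mm10. No source used here gives the trimming, alignment or filters. The deposited values are RPM per distinct sequence, scaled by the authors. The columns were read as nuclear (N) and cytoplasmic (C) by the last letter of their names. All values above 0 (100%) were whole multiples of 1 read (0.499995 RPM nuclear, 0.490 RPM cytoplasmic) within 0.1 read, so whole reads were recovered, 2000019 nuclear and 2041383 cytoplasmic. The total sequenced is not known.

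Sequences of 18 to 39 nt were matched exactly to GENCODE vM21 transcripts. The genome outside transcripts and most tRNA genes were not matched here. Small RNA genes came from GENCODE and RefSeq (GRCm38.p6). Exact intervals (95%) used SciPy 1.17.1, with Python 3.11.15, NumPy 2.4.6 and pandas 2.3.3, and edgeR 4.0.16 gave TMM factors for an alternative. The count model had no residual degrees of freedom, so no p-value is given. Matching and calls were tested on simulated data.

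The members and the gene lists were chosen with earlier results of these data known. Genes named by rule were the 10 with most reads, the 10 with the largest ratio, those called lower, and the 5 with the largest and 5 with the smallest odds ratio whose interval excluded 1, of which the smallest had no member below 1. Other genes are named as examples. Some items are not reported here. Alternatives covered scaling, the read minimum, the pseudocount, fragment length, small RNA overlap and distance, and the leaving out of single genes or of the most abundant sequence.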

Additional observations from a re-analysis of the deposited data

How the results depend on the processing

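The level ratio of all retained intron reads was 10.6 and ranged from 3.38 (distinct sequences) to 19.7 (scaled by the miRNA total) over 15 alternatives, with 7.26 under TMM factors and 6.42 under median of ratios. These scalings moved every log2 ratio by 0.89, -0.55 and -0.72. At a minimum of 20 reads, 57 of 59 entries were higher, against 44% of 2442 entries of all kinds. With no minimum 344 of 2595 were higher, and with fragments of 20 nt or more 9 of 10. No share over all entries was taken at these last settings, so those counts have no background beside them. Entries that were lower numbered 0 without Ttyh1, also when Snrpb was left out with it. Genes whose odds ratio interval lay above 1 numbered 63 of 148 at a minimum of 10 reads and 114 of 484 at a minimum of 5, where 1 interval lay below. For the 16 genes named by rule, the fold and interval rule was applied without the read minimum, and none changed under 9 alternatives. H2-Aa, Pgd and Tes had under 50 reads throughout, and others fell under it in some alternatives, such as Cxcl3 and Slc15a3 for introns alone. No result reversed. Leaving out Snrpb, Ttyh1 or both, counting introns alone, and leaving out the 2 genes with most reads of each list were chosen after seeing the data. The read minimum limits which genes can be measured, and the cause of the other shifts was not tested. No paired analysis was possible because each fraction has 1 library.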
